A study of Mus musculus with 55 samples.

Results

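The expression of 10 genes of hepcidin control and iron handling was examined in mouse livers in which Rnf43 and Znrf3 had been deleted. These were Hamp, Hamp2, Bmp6, Id1, Smad7, Tfrc, Tfr2, Trf, Slc40a1 and Ftl1, 10 of the 34491 gene symbols shared by the count tables of both sequencing batches. They were chosen by symbol, with their counts-per-million values (CPM) in each group of these same libraries in view. Their folds and adjusted p-values are therefore given as a description and are not independent evidence. RNF43 and ZNRF3 are ubiquitin ligases that remove Wnt receptors from the cell surface.

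All mice were C57BL/6 adults that carried floxed alleles of both genes, with the exons encoding the RING domain between the loxP sites. In R&Zdel livers these exons were deleted in hepatocytes, either by tamoxifen in mice with an albumin-driven, inducible Cre (Alb1-CreERT2) or by a hepatotropic AAV8 virus carrying Cre. R&Zflox controls received vehicle or a null virus. Undamaged livers were taken 1, 3 or 7 months (1M, 3M, 7M) after deletion, with 4, 5 and 5 R&Zflox libraries and 4, 2 and 5 R&Zdel libraries. The 1M libraries were of batch 2 and virus delivery, with both sexes in each genotype. Those of 7M were of tamoxifen delivery and both batches, all male apart from an R&Zflox female. At 3M batch 1 was of tamoxifen and batch 2 of virus delivery, so these cannot be told apart. Its R&Zdel libraries were a batch 1 female and a batch 2 male, beside R&Zflox males in both batches. Chronic damage (CD) was repeated CCl4, a hepatotoxin, and livers were taken 4, 50 or 170 days later. There were 2, 1 and 2 R&Zflox libraries and 2 R&Zdel libraries at each time. All were of male mice, batch 1 and tamoxifen delivery. Partial hepatectomy (PHx), the surgical removal of liver lobes, was followed by 7 or 21 days of recovery, with 3 libraries of each genotype at each time, all of batch 2 and virus delivery. The labels put both genotypes under the same damage, and the study's results also describe CCl4-damaged wild-type littermates. Its methods describe vehicle-only control littermates instead, and the labels were followed here. The study's sample list gives both R&Zflox libraries of 170 days under 50 days as well; the titles were followed, and every R&Zflox value at 170 days rests on them. The R&Zdel female at 3M and the R&Zflox female at 7M are records whose title and characteristics disagree, and were placed by their characteristics. Since the samples are whole livers, fewer cells of a type and less RNA per cell cannot be told apart in any result below.

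Hepcidin, encoded by Hamp, is the liver hormone that limits iron entry into plasma: it binds ferroportin (Slc40a1), the cellular iron exporter, and causes its degradation. In hepatocytes its transcription is driven by bone morphogenetic proteins, chiefly BMP6 from liver endothelium, through SMAD proteins, and by interleukin 6 through STAT3. Id1 and Smad7 are direct targets of the same SMAD pathway, and SMAD7 feeds back on it as an inhibitor. Mice carry a second gene, Hamp2, next to Hamp, whose product is not known to control iron in the way hepcidin does. Transferrin (Trf) carries iron in plasma, transferrin receptor 1 (Tfrc) takes it up, transferrin receptor 2 (Tfr2) senses it on hepatocytes, and ferritin light chain (Ftl1) stores it.

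The 250 bases before the start of Hamp and of Hamp2 are shown because the genes are near copies of one another whose levels followed different courses in these livers. The sequences are those of RefSeq on GRCm38.p6, 5′ to 3′ on the minus strand, Hamp at chr7:30944030-30944279 and Hamp2 at chr7:30924182-30924431. Capitals mark the 6 letters of the BMP-responsive element (GGCGCC in Hamp, with its counterpart in Hamp2) and then the STAT site (searched as TTCNNNGAA).
Hamp: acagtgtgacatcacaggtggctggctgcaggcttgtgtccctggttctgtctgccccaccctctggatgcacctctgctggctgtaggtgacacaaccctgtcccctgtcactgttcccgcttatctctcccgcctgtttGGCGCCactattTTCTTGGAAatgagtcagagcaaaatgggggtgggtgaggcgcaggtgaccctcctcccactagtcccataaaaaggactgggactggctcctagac
Hamp2: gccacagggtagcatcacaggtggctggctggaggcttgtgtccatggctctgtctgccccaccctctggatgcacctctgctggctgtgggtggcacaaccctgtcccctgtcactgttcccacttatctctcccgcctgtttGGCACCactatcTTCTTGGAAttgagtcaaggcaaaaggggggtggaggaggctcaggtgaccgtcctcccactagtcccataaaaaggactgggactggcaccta
Of 247 aligned bases 227 were the same (91.9%). Within the BMP-responsive element, counted from its first base, Hamp2 differed by G4A, so the searched letters were found in Hamp (bases -109 to -104 from the start) and not in Hamp2. The STAT letters were found in both, at -97 to -89 in Hamp and -94 to -86 in Hamp2. Of 32851 promoters of the same length in the table, on both strands, 9.59% held GGCGCC and 7.02% held TTCNNNGAA. A match describes letters and not a used site. The gene bodies, chr7:30942368-30944029 and chr7:30922372-30924181, lie 18.2 kb apart. Because the copies are so alike, short reads could have been split between them, and counts of Hamp and Hamp2 are uncertain to that extent. Of the 10 genes, 6 had a promoter in the table, and the 6 letters of the BMP-responsive element were also found before Tfrc, at -89 to -84.

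Totals per library ran from 11721687 to 38692089 counts, with no pair of identical libraries. Of 53 libraries, 48 had a group. Batches differed in scale for some of the genes: the median of Ftl1 was 2199 CPM in batch 1 and 15.2 CPM in batch 2, that of Trf was 20796 and 2560 CPM, and Bmp6 was at 0 in 13 of 48 libraries. Levels are therefore compared within a batch, or in a fit with batch as a term. Whole-gene counts of the deleted genes were not lower in R&Zdel livers (at 1M the log2 difference of Rnf43 was 2.22 ± 0.49 and that of Znrf3 1.82 ± 0.32, SE); they do not resolve the deleted exons and so check nothing about the deletion. The 6 hepatocyte markers were detected in every library. Their sum was lower in R&Zdel livers without overlap at 1M (60640 to 79176 against 107066 to 124250 CPM) and 3M (63430 to 81189 against 92730 to 118898 CPM). The same held 170 days after CCl4 (62454 to 64408 against 72692 to 112071 CPM) and 21 days after hepatectomy (63788 to 95640 against 105644 to 122445 CPM). At 7M the sums overlapped with both batches together (57262 to 102296 against 88412 to 120332 CPM) but not within either batch. R&Zdel livers had 57262 and 62640 against 98041 and 88412 CPM in batch 1. In batch 2 they had 63649 to 102296 against 106849 to 120332 CPM. At 50 days after CCl4 the sum was 72045 to 98245 CPM in R&Zdel livers and 98565 CPM in the lone R&Zflox library. The part of these markers in the differences of hepatocyte genes such as Hamp was not tested. Differences below are log2 R&Zdel over R&Zflox ± SE from an edgeR quasi-likelihood fit of all genes, and a gene was called where the p adjusted over all genes (Benjamini-Hochberg) was under 0.1 and the log2 difference exceeded 1 in size. The labels number the libraries without naming the animal of each, so p-values measure the spread between these libraries. Whether groups overlapped is a description only, as the share of all genes without overlap is not given here. At 4, 50 and 170 days after CCl4, 7, 8 and 6 of the 10 genes had groups without overlap. With so few libraries per group, many genes separate by chance, and these counts are not read as a result about the 10 genes.

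Per kilobase of exon, the order of the medians in batch 1 (18 libraries) was Trf at 8918 CPM per kb, Hamp at 3454, Ftl1 at 2267, Hamp2 at 191, Tfr2 at 87.3, Slc40a1 at 23.3, Id1 at 22.7, Tfrc at 1.59, Smad7 at 1.08 and Bmp6 at 1.06. The ranges over libraries of neighbours in that order overlapped, except between Ftl1 and Hamp2, between Tfr2 and Slc40a1 and between Id1 and Tfrc. The spread of Hamp2 was the widest of the 10 as a ratio, from 3.34 to 1268 CPM per kb. Hepcidin message was abundant, while Bmp6 and Smad7 lay at the lower end of the 10.

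Hamp was lower on average in R&Zdel livers at 1M, 3M and 7M, without passing the test at any of them. At 1M, R&Zflox males had 818 and 764.9 CPM and females 2260 and 1171 CPM, while R&Zdel males had 743 and 326.1 CPM and females 1082 and 1086 CPM. Within each sex both R&Zdel values lay below both R&Zflox values, and the log2 difference was -0.80 ± 0.34 (adjusted p = 0.523), where 0.436% of 12849 genes were called. At 3M, R&Zflox livers had 1799 and 1366 CPM in batch 1 and 2542, 2297 and 5905 CPM in batch 2, against 912.8 CPM in the batch 2 R&Zdel male and 2091 CPM in the batch 1 R&Zdel female. The R&Zdel male lay below its batch and the female lay above the males of hers. The log2 difference was -1.49 ± 0.45 (adjusted p = 0.361), with 0.226% of genes called. DESeq2 called it (log2 difference -1.53, adjusted p = 0.043, range over alternatives 0.0178 to 1). At 7M the groups overlapped: R&Zflox livers had 1821 (male) and 3174 (female) CPM in batch 1 and 1568, 1296 and 1461 CPM in batch 2, and R&Zdel livers had 1195 and 980.4 CPM and then 1239, 995.9 and 2293 CPM. The log2 difference was -0.10 ± 0.30 (adjusted p = 0.97) and 0.22 within batch 2, with 0.451% of genes called.

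After CCl4 Hamp was higher in R&Zdel livers at 4 days and lower at 50 days. At 4 days R&Zflox livers had 985.3 and 969.4 CPM and R&Zdel livers 2115 and 1652 CPM, and the groups did not overlap. The ratio of mean CPM was 1.93. The fitted fold was 1.38 (log2 0.47 ± 0.29, adjusted p = 0.287), because the TMM scaling factors of the R&Zdel libraries were 1.27 and 1.42 against 0.93 and 0.955. At 50 days the R&Zflox library had 1864 CPM and the R&Zdel libraries 1134 and 1100 CPM (log2 -0.97 ± 0.35, adjusted p = 0.149). With a lone R&Zflox library, that group is assumed to vary like the others. At 170 days the groups overlapped, with 1644 and 1246 CPM in R&Zflox and 964.8 and 1445 CPM in R&Zdel livers (log2 -0.47 ± 0.29, adjusted p = 0.729). The share of 11359 genes called was 15.2% at 4 days, 5.58% at 50 days and 0.625% at 170 days.

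Beside the 4 day values, marker sums of several cell types separated by genotype as well. The 5 cholangiocyte markers, all detected, summed to 3490 to 6224 CPM in R&Zdel livers and 86.4 to 156 CPM in R&Zflox livers. The 6 endothelial markers summed to 95.5 to 203 CPM against 228 to 236 CPM, and the 6 hepatocyte markers to 70545 to 86408 CPM against 88969 to 92301 CPM. Also higher in R&Zdel livers were the 6 erythroid markers (825 to 1050 against 645 to 699 CPM) and the 5 stellate markers (49.8 to 115 against 37.2 to 43.6 CPM). Sums of the 6 Kupffer cell markers overlapped (388 to 642 against 531 to 1192 CPM), as did those of neutrophil and lymphocyte markers. The part of these cell types in the differences at 4 days was not tested.

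After partial hepatectomy Hamp was lower in each R&Zdel liver at 7 days and overlapped at 21 days. At 7 days R&Zflox livers had 1593, 978.5 and 981.7 CPM and R&Zdel livers 744.8, 249.9 and 416.7 CPM. The hepatocyte markers moved with genotype at the same time, summing to 117957 to 144561 CPM in R&Zflox and 63911 to 85387 CPM in R&Zdel livers, and their part in the Hamp difference was not tested. The log2 difference was -1.42 ± 0.38, with an unadjusted p of 0.00125 from edgeR and an adjusted p of 0.2, where 0.274% of 12774 genes were called. It was called with the R&Zdel library of 744.8 CPM left out (log2 -1.95, adjusted p = 0.0488) and by edgeR's likelihood ratio test (adjusted p = 0.0856), with a range over alternatives of 5.33e-09 to 0.889. At 21 days R&Zflox livers had 681.3, 357.3 and 627.1 CPM, and R&Zdel livers 762.8 and 632.7 CPM in males and 799 CPM in a female. The log2 difference was 0.05 ± 0.38 (adjusted p = 0.999), with 0.329% of genes called. The change of the genotype difference between 7 and 21 days was 1.46 ± 0.53 (adjusted p = 0.774).

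**Figure D1:**
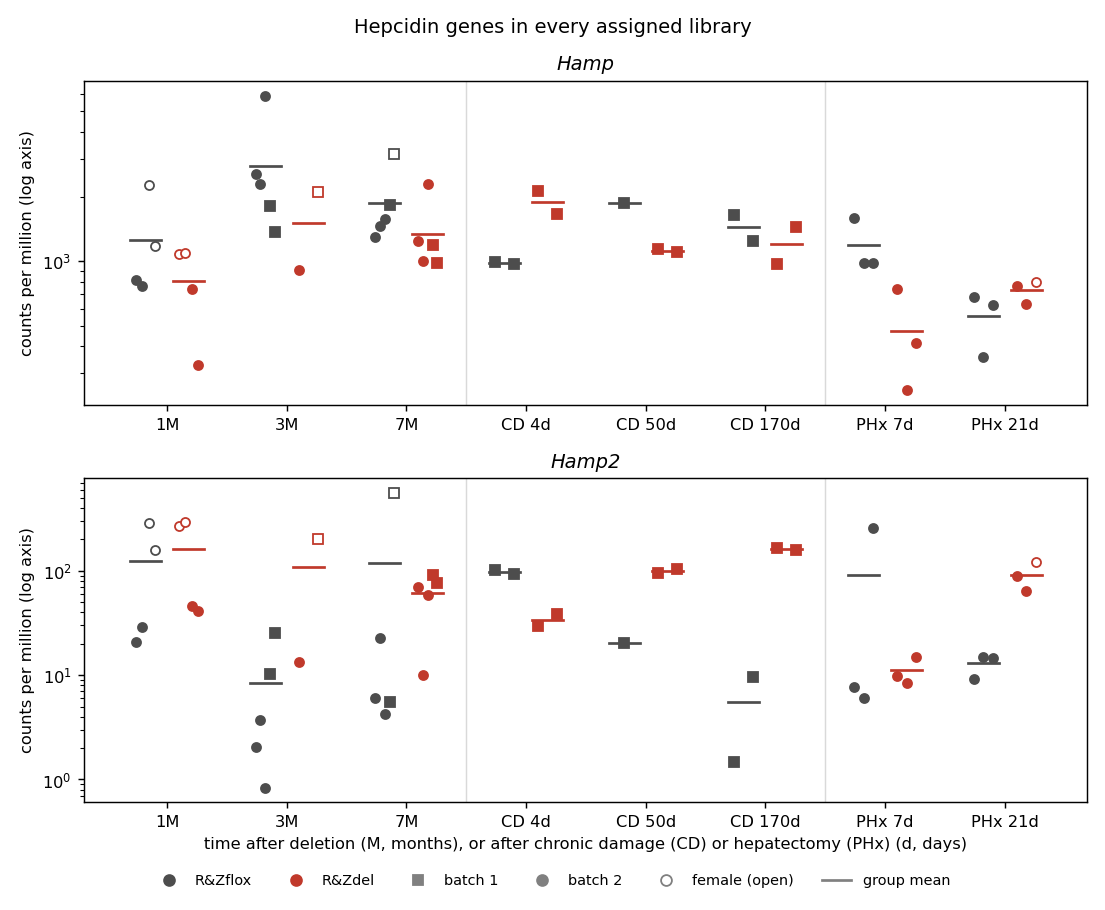
CPM of Hamp and Hamp2 in each assigned library, on a log axis, by genotype and condition. Squares are batch 1, circles batch 2, open symbols females and lines group means. Hamp stayed between 249.9 and 5905 CPM, while Hamp2 ran from 0.8347 to 553.9 CPM.

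Damage against no damage was compared within a batch and genotype. In R&Zflox livers, Hamp after hepatectomy differed from the 1M livers by log2 0.38 ± 0.38 at 7 days and -0.64 ± 0.38 at 21 days, and in R&Zdel livers by -0.24 ± 0.38 and 0.20 ± 0.36. At 4 days after CCl4 it was lower than in 3M R&Zflox livers of batch 1 by log2 -0.81 ± 0.28 (adjusted p = 0.189), and at 170 days it differed from 7M livers by -0.25 ± 0.34 in R&Zflox and 0.08 ± 0.28 in R&Zdel. None passed the test. The 4 day and 3M livers differ in time after deletion, and not all hepatectomised livers match the 1M livers in it. These comparisons share control libraries with each other.

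Hamp2 followed another course. At 1M it differed by sex: R&Zflox males had 20.87 and 29.1 CPM and females 284.1 and 158.4 CPM, and R&Zdel males had 45.61 and 41.18 CPM and females 269.2 and 296.3 CPM. Every female exceeded every male. The log2 female over male difference was 2.89 ± 0.25 (adjusted p = 6.83e-05), where 0.992% of 11293 genes were called, while for Hamp it was 1.03 ± 0.25 (adjusted p = 0.149). The only female of the 7M R&Zflox group had 553.9 CPM against 4.197 to 22.62 CPM in the 4 males, and the 3M R&Zdel female had 202.6 CPM against 13.41 CPM in the male, both females being among the records with conflicting labels. Sex is therefore a term of each fit that holds both.

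With males of 7M set side by side, Hamp2 was higher in R&Zdel livers, at 90.16 and 76.89 CPM in batch 1 and 70.45, 10 and 58.71 CPM in batch 2, against 5.479 CPM and then 4.197, 6.004 and 22.62 CPM. A single R&Zdel library fell within the R&Zflox range. The log2 difference in all libraries was 1.999 ± 0.63 (adjusted p = 0.29). It was 3.87 within batch 1 and 2.23 within batch 2, and DESeq2 called it (adjusted p = 0.0514, range over alternatives 0.00796 to 0.897). DESeq2 adjusted p over only 2878 genes at 7M, against 12849 in the edgeR fit, so the adjusted values are not like for like. At 1M both R&Zdel males lay above both R&Zflox males, the females overlapped, and the log2 difference was 0.42 ± 0.66. At 3M the R&Zflox males had 10.32 and 25.36 CPM in batch 1 and 2.062, 3.754 and 0.8347 CPM in batch 2, and the fitted difference of 1.36 ± 0.81 turned to -3.09 within batch 1, where the R&Zdel liver is the female.

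After CCl4 the Hamp2 difference changed sign with time. At 4 days R&Zflox livers had 102.1 and 93.86 CPM and R&Zdel livers 29.44 and 38.61 CPM, a called fall (log2 -2.02 ± 0.58, adjusted p = 0.0412) that was lost on leaving out any of the 4 libraries. At 50 days the R&Zflox library had 20.27 CPM and the R&Zdel libraries 94.73 and 104.9 CPM (log2 2.06 ± 0.76, adjusted p = 0.157). At 170 days R&Zflox livers had 1.459 and 9.577 CPM and R&Zdel livers 166.8 and 159.3 CPM, a called rise (log2 4.70 ± 0.66, adjusted p = 0.0264). Hamp at the same time differed by -0.47, was not called, and its groups overlapped. The 170 day call was lost with its 4 libraries fitted alone (adjusted p = 0.392, where edgeR called no gene) and without 1 of its R&Zdel libraries (adjusted p = 0.147), and with conflicting libraries placed by characteristics (adjusted p = 0.503), with a range over alternatives of 4.78e-57 to 0.503. In R&Zflox livers Hamp2 was also called higher at 4 days than in undamaged 3M livers of batch 1 (log2 2.30 ± 0.63, adjusted p = 0.0966), where 3.00% of 12609 genes were called, and that call was lost without any one of the libraries compared.

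After hepatectomy, 1 R&Zflox library decided the Hamp2 value at 7 days. R&Zflox livers had 7.634, 6.043 and 257.5 CPM and R&Zdel livers 9.901, 8.396 and 14.98 CPM. The log2 difference was -3.14 ± 0.93 (adjusted p = 0.359) and 0.60 without the library of 257.5 CPM, which is listed as male. At 21 days R&Zflox livers had 9.189, 15.08 and 14.54 CPM, R&Zdel males 88.14 and 64.69 CPM and the R&Zdel female 120.2 CPM, and no value overlapped (log2 2.08 ± 0.90, adjusted p = 0.556). Over the 1M livers, Hamp2 differed by 1.42 ± 0.92 at 7 days and -1.31 ± 0.93 at 21 days in R&Zflox and by -2.08 ± 0.92 at 7 days in R&Zdel livers, none called; the first of these was -2.32 without the same library.

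Bmp6, the ligand, was too low to compare in most libraries. In batch 1 its group means lay between 1.82 and 4.42 CPM. After CCl4 R&Zdel livers had 3.42 and 4.56 CPM at 4 days against 2.03 and 3.12 CPM, groups that did not overlap, with a log2 difference of 0.14 ± 0.45 after scaling. In batch 2, where it was often at 0, the fitted differences had large errors: 1.19 ± 2.11 at 1M, -1.51 ± 2.93 at 3M and 4.14 ± 2.93 at 7 days after hepatectomy. Over undamaged livers it was -3.98 ± 2.88 and 1.70 ± 2.47 at 7 and 21 days in R&Zflox, -1.13 ± 2.86 at 7 days in R&Zdel, and -1.14 ± 0.51 at 170 days after CCl4 in R&Zflox. None was called.

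Id1 and Smad7, the SMAD target genes, were higher in R&Zdel livers at 4 days of chronic damage. Id1, an inhibitor of basic helix-loop-helix factors, had 16.58 and 34.3 CPM in R&Zflox and 159 and 119.6 CPM in R&Zdel livers (log2 1.98 ± 0.35, adjusted p = 0.00784). Smad7 had 3.13 and 3.454 CPM against 12.5 and 11.75 CPM (log2 1.40 ± 0.31, adjusted p = 0.0188), and its call was lost without 1 R&Zflox library (adjusted p = 0.126, range over alternatives 0.00134 to 0.126). Neither gene's groups overlapped at 4 days. At 50 days Id1 had 12.55 CPM in the R&Zflox library and 37.33 and 46.04 CPM in the R&Zdel libraries (log2 1.48 ± 0.45, adjusted p = 0.105), and at 170 days it had 23.8 and 25.1 CPM against 21.1 and 34.6 CPM. Smad7 at 170 days had 3.22 and 5.33 CPM against 4.19 and 4.58 CPM.

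In undamaged and hepatectomised livers neither SMAD target was called. Smad7 at 3M differed by -2.27 ± 0.89 (adjusted p = 0.617), with R&Zflox libraries at 4.06 and 3.95 CPM in batch 1 and 12, 6.82 and 55.09 CPM in batch 2, against 2.80 CPM in the batch 2 R&Zdel male and 6.09 CPM in the batch 1 female. The R&Zflox library of 55.09 CPM is the one with the highest Hamp. Id1 overlapped at 1M, 3M and 7M, with medians of 10.4, 21.4 and 29.5 CPM in R&Zflox and 20.4, 23.4 and 15.1 CPM in R&Zdel livers. In R&Zflox livers Id1 differed by 1.09 ± 0.74 between 7 days after hepatectomy and 1M.

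Of the transferrin system, Tfrc rose and Tfr2 fell in R&Zdel livers at 4 days after CCl4. Tfrc, the uptake receptor whose message is stabilised when cells are short of iron, had 8.724 and 7.009 CPM in R&Zflox and 30.68 and 25.8 CPM in R&Zdel livers (log2 1.36 ± 0.31, adjusted p = 0.0192). It was not called without 1 R&Zflox library (adjusted p = 0.115, range over alternatives 6.05e-05 to 0.115). Tfr2, the hepatocyte iron sensor, had 358.4 and 333.7 CPM against 198.1 and 184.7 CPM (log2 -1.34 ± 0.22, adjusted p = 0.0058), and its size fell short of the call at -0.83 when libraries were scaled by their totals alone. Under that scaling the median over all genes at 4 days moved from 0.06 to 0.57, and the Tfr2 value of -0.83 stands beside that median of 0.57. Trf, the plasma carrier, had 22169 and 31462 CPM in R&Zflox and 21920 and 26332 CPM in R&Zdel livers and did not pass the test.

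**Figure D2:**
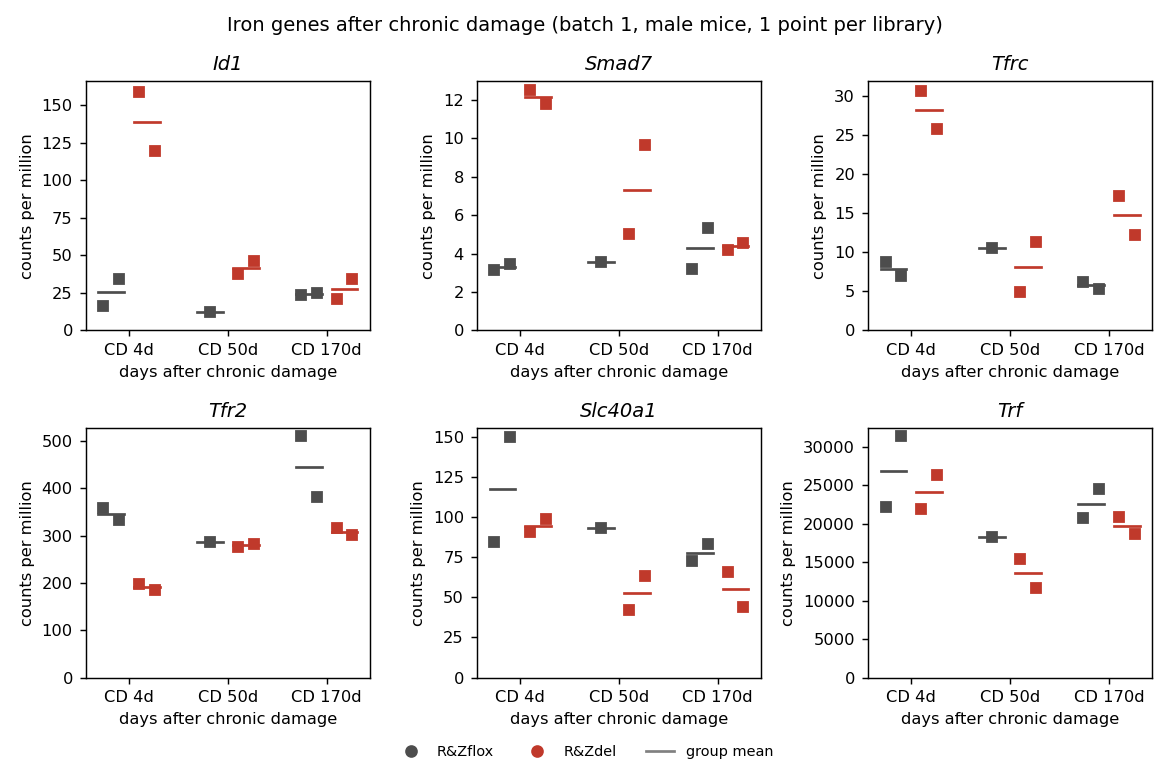
CPM after CCl4 for Id1, Smad7, Tfrc, Tfr2, Slc40a1 and Trf, 1 point per library, linear axes from 0, by genotype and days, with lines at group means. At 4 days the R&Zdel points of Id1, Smad7 and Tfrc lie above the R&Zflox points and those of Tfr2 below them.

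At 170 days Tfrc had 6.244 and 5.368 CPM in R&Zflox and 17.29 and 12.24 CPM in R&Zdel livers (log2 1.14 ± 0.31, adjusted p = 0.239), and Tfr2 had 510.6 and 380.5 CPM against 316.5 and 300.5 CPM. Neither was called, and neither pair of groups overlapped. At 50 days Tfrc had 10.6 CPM against 4.94 and 11.3 CPM. In undamaged livers Tfrc at 3M differed by 2.16 ± 0.85 (adjusted p = 0.621): the R&Zdel male had 37.04 CPM, the R&Zdel female 7.61 CPM and the R&Zflox livers 1.169 to 9.811 CPM. At 7M the ranges were 3.80 to 11.6 CPM in R&Zflox and 1.32 to 26.7 CPM in R&Zdel livers. After 7 days of hepatectomy recovery R&Zdel livers had 18.3 to 29.5 CPM and R&Zflox livers 0.733, 8.78 and 31.3 CPM, and these overlapped. Tfr2 group means in the undamaged and hepatectomy groups lay between 284.7 and 420.9 CPM in each batch.

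Slc40a1, the exporter that hepcidin acts on, had lower group means in R&Zdel livers at 3M, 7M and all times after CCl4 and hepatectomy, and was called in none of the comparisons. At 1M the means were 98.1 ± 20.8 CPM in R&Zflox and 102.2 ± 20.0 CPM in R&Zdel livers (SD, n = 4 each). At 4 days after CCl4 it had 84.81 and 150.1 CPM in R&Zflox and 90.66 and 98.92 CPM in R&Zdel livers, overlapping, with a scaled log2 difference of -0.79 ± 0.28 and an adjusted p of 0.075 that fell short of the required size. At 50 days the R&Zflox library had 93.11 CPM and the R&Zdel libraries 41.93 and 63.64 CPM (log2 -1.09 ± 0.33, adjusted p = 0.102). At 170 days the values were 72.75 and 83.19 CPM against 65.77 and 44.07 CPM. With the libraries whose title and characteristics disagree placed by their characteristics, the 50 day difference turned to 0.15.

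At 7M Slc40a1 had 116.7 and 143.5 CPM in batch 1 R&Zflox and 173.4, 126.3 and 189 CPM in batch 2 R&Zflox livers, against 48.99 and 55.34 CPM and then 35.95, 157.3 and 62.56 CPM in R&Zdel livers. All but 1 of the R&Zdel values lay below every R&Zflox value (log2 -0.94 ± 0.29, adjusted p = 0.263). Kupffer cell markers, of macrophages that also export iron, summed to 157 to 420 CPM in R&Zflox and 81.9 to 227 CPM in R&Zdel livers at 7M, to 326 against 118 to 219 CPM at 50 days after CCl4 and to 137 to 214 against 108 to 117 CPM at 170 days, and their part in the Slc40a1 differences was not tested. At 21 days after hepatectomy R&Zflox livers had 88.1, 72.85 and 55.2 CPM, R&Zdel males 24.96 and 33.41 CPM and the R&Zdel female 103.7 CPM (log2 -0.97 ± 0.33, adjusted p = 0.377). At 7 days the groups were 55.82 to 64.33 CPM and 44.46 to 53.55 CPM and did not overlap, a log2 difference of -0.37.

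**Figure D3:**
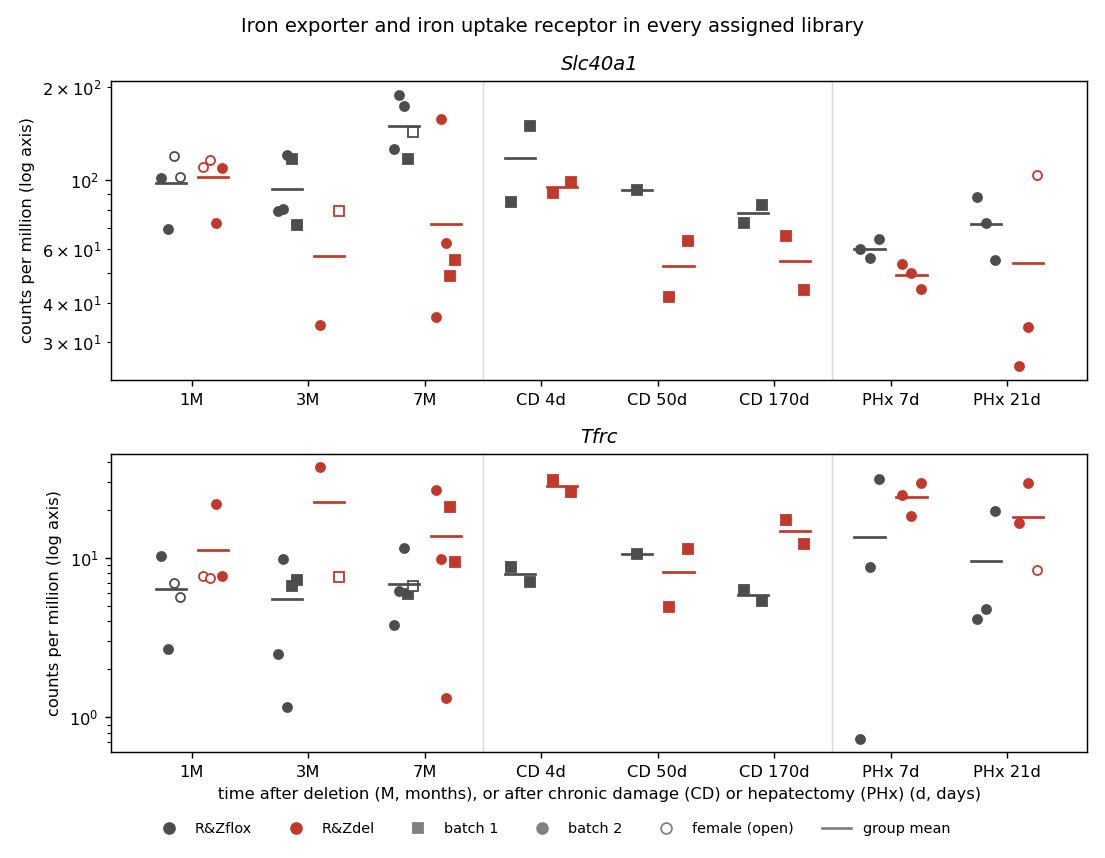
CPM of Slc40a1 (iron exporter) and Tfrc (uptake receptor) in each assigned library, log axes, by genotype and condition, with symbols for batch and sex and lines at group means. At 7M 4 of the 5 R&Zdel libraries of Slc40a1 lie below all R&Zflox libraries.

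Ftl1, which stores iron, could be read in batch 1, where group means lay between 1582 and 2878 CPM. It had 2467 and 2690 CPM in R&Zflox and 2307 and 2620 CPM in R&Zdel livers at 4 days after CCl4, and 1857 and 1865 CPM against 2096 and 2260 CPM at 170 days. No comparison called it, and in batch 2 its group means were 7.23 to 33.4 CPM, a scale that cannot be set beside batch 1.

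The time course of the genotype difference was tested directly for chronic damage. Between 170 and 4 days it changed by 6.72 ± 0.87 on the log2 scale for Hamp2 (adjusted p = 0.0143), by -2.002 ± 0.48 for Id1 (adjusted p = 0.0599) and by -1.56 ± 0.44 for Smad7 (adjusted p = 0.0883), where 7.66% of genes passed an adjusted p of 0.1. The Smad7 change passed in 8 of 17 alternatives (adjusted p up to 0.25), and the Id1 change in 12 of 17 (up to 0.172), while that of Hamp2 passed in all 17. Those 17 did not include placing conflicting libraries by characteristics or fitting the compared groups alone. Each of these settings lost the Hamp2 call at 170 days. For Hamp the change was -0.94 ± 0.42 (adjusted p = 0.218). Between 50 and 4 days no member passed, where 170 of 11359 genes did: Hamp changed by -1.44, Hamp2 by 4.08 and Tfrc by -2.05.

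Of the 10 genes, all were tested in all 15 comparisons. At 4 days of chronic damage 3 were called higher and 2 lower (Id1, Smad7 and Tfrc, then Tfr2 and Hamp2), beside the 15.2% of all genes called there. At 170 days 1 was called higher, and in R&Zflox livers at 4 days over 3M 1 was called higher, Hamp2 in both. In the other 12 comparisons edgeR called none of them, 50 days of chronic damage included, where 5.58% of all genes were called. Over all 15 comparisons DESeq2 made 12 member calls where edgeR made 7. DESeq2 called more of all genes as well in each comparison. At 4 and 50 days of chronic damage it called 1842 and 1045 genes, against 1729 and 634 by edgeR. The share of all genes called was 0.0235% in R&Zflox at 7 days after hepatectomy over 1M and 0.0157% in R&Zdel livers. No gene was called by edgeR at 21 days over 1M in either genotype (0%) or at 170 days over 7M in either genotype (0%), where 885, 626, 697 and 857 genes had an unadjusted p below 0.05 and DESeq2 called 339, 173, 42 and 93.

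**Figure D4:**
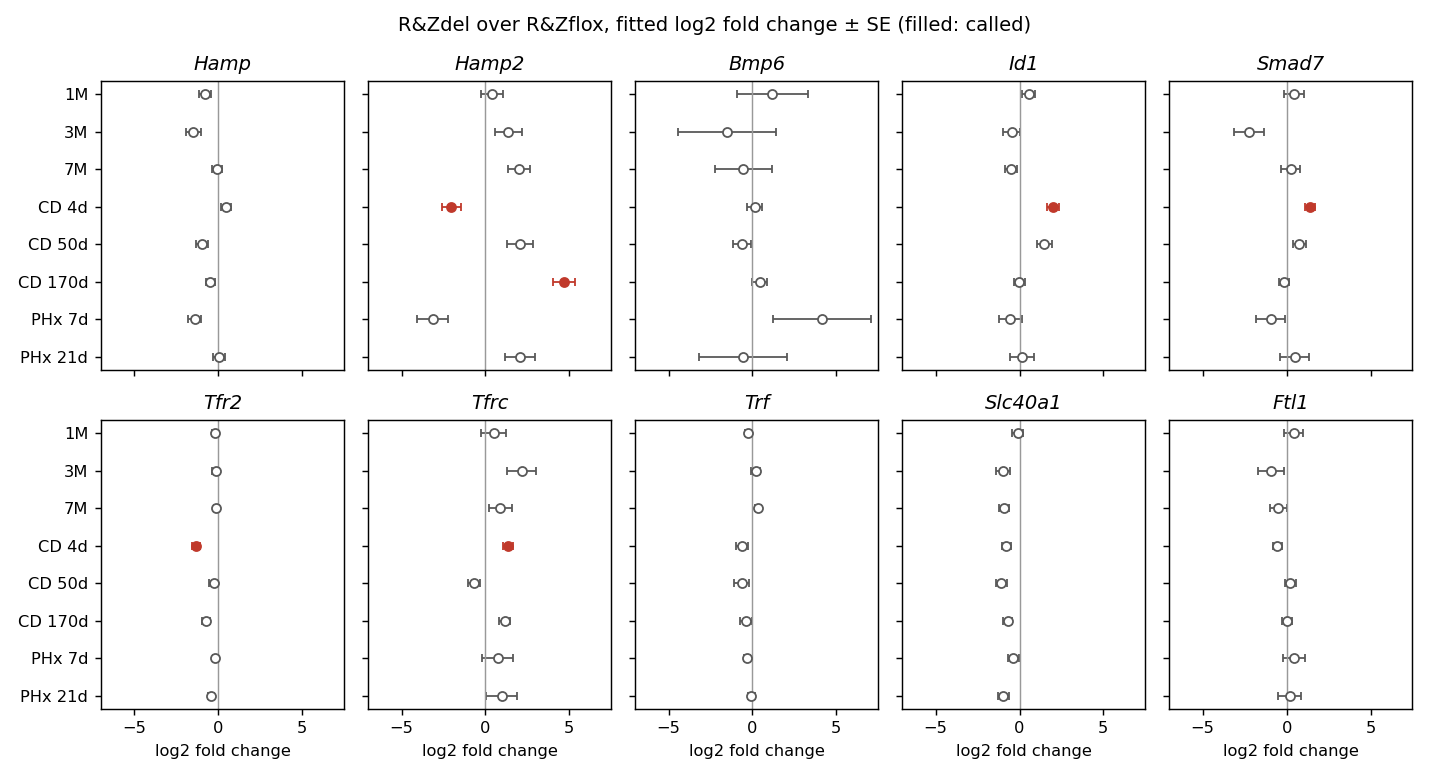
Log2 R&Zdel over R&Zflox ± SE for the 10 genes in the 8 comparisons of genotype, filled points called. The 6 filled points are Id1, Smad7, Tfrc, Tfr2 and Hamp2 at 4 days of chronic damage and Hamp2 at 170 days.

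A list of 53 other genes of the same pathways, 50 to 52 of them tested, was read in the same fits. At 4 days of chronic damage 1 was called higher and 4 lower of 50, a share of 10% where 15.2% of all genes were called. Smad6, an inhibitory SMAD and SMAD target like Smad7, had 1.69 and 2.03 CPM in R&Zflox and 4.76 and 7.32 CPM in R&Zdel livers (log2 1.19 ± 0.37, adjusted p = 0.0521), and the call was kept in 8 of 12 alternatives (adjusted p up to 0.244). Fgb, a fibrinogen chain of the acute phase response, had the largest change of the list's called genes (5031 and 6117 against 2239 and 2309 CPM, log2 -1.78 ± 0.30, adjusted p = 0.00682).

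Tmprss6, the protease that restrains hepcidin, had 446.8 and 504.2 CPM in R&Zflox and 324 and 336 CPM in R&Zdel livers (log2 -1.01 ± 0.28, adjusted p = 0.037). Bmp2, a second BMP ligand of liver endothelium, had 7.65 and 8.86 CPM against 3.53 and 5.52 CPM (log2 -1.37 ± 0.40, adjusted p = 0.0447). Slc39a8, a metal importer, had 15.1 and 20.6 CPM against 10.5 and 14.6 CPM (log2 -1.00004 ± 0.24, adjusted p = 0.022). The calls of these last 3 were lost when libraries were scaled by totals alone, and were kept in 9, 6 and 7 of 12 alternatives for Tmprss6, Bmp2 and Slc39a8. That of Bmp2 was lost on leaving out any of the 4 libraries, and the others on leaving out 1 of either genotype. The median over the list was -0.08 beside 0.06 over all genes.

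At 50 days Acvr2a, a BMP type II receptor, was called lower (11.9 against 3.95 and 8.63 CPM, log2 -1.22 ± 0.33, adjusted p = 0.0884), as was Nfs1, the cysteine desulfurase of iron-sulfur cluster assembly (52.1 against 26.1 and 34.8 CPM, log2 -1.04 ± 0.22, adjusted p = 0.0597). The R&Zflox arm is a single library with no spread of its own. Both calls were lost under scaling by totals, without 1 R&Zdel library, and with conflicting libraries placed by characteristics, where edgeR called no gene at 50 days (adjusted p up to 0.919). Of all genes, 5.58% were called at 50 days. In undamaged livers Id2, another SMAD target of the same family as Id1, was called lower at 7M, with 184.8 to 347.5 CPM in batch 1 R&Zflox and 336.6 to 382 CPM in batch 2 R&Zflox livers against 100.2 to 103.6 and 141.1 to 191.3 CPM in R&Zdel livers (log2 -1.06 ± 0.23, adjusted p = 0.03). The groups did not overlap in either batch, beside 0.451% of all genes called at 7M. The call was kept in 16 of 23 alternatives: it was lost in males alone (-0.93), in batch 1 alone (adjusted p = 0.73) and in batch 2 alone (adjusted p = 0.378), without the R&Zflox female (-0.92) and without 1 R&Zdel library (adjusted p = 0.122), among others. In the remaining comparisons edgeR called none of the list. Over all comparisons DESeq2 made 28 calls in it where edgeR made 8. DESeq2 also called more of all genes in each comparison.

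**Figure D5:**
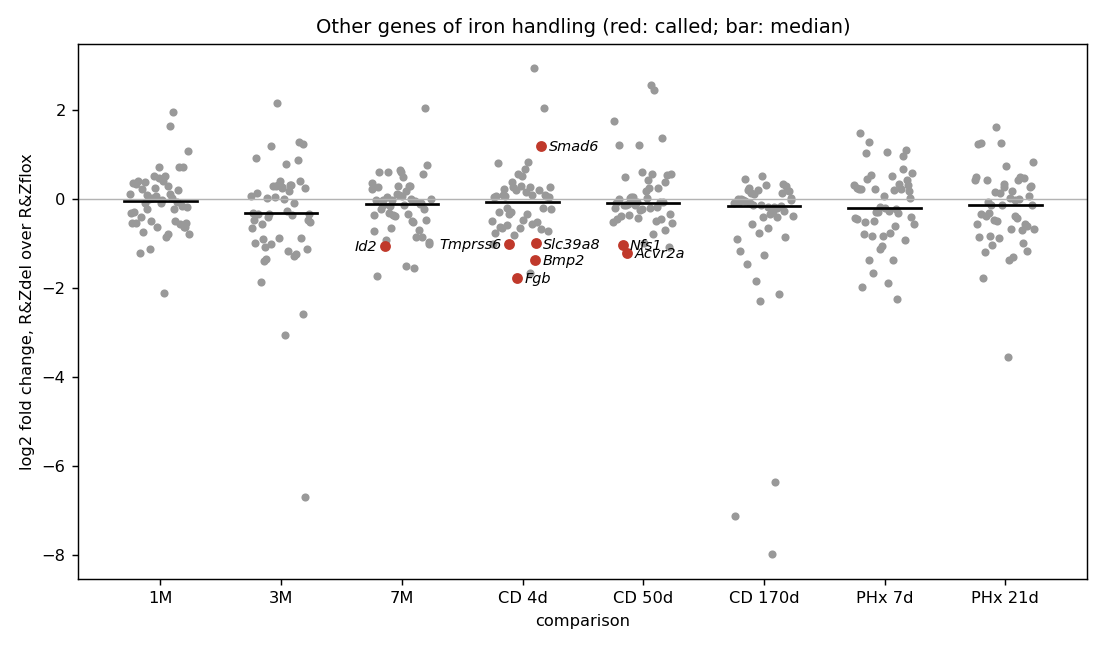
Log2 R&Zdel over R&Zflox of the other iron genes tested, by comparison, with called genes in red and a bar at the median of the list. The called genes are Id2 at 7M, Smad6, Bmp2, Tmprss6, Slc39a8 and Fgb at 4 days, and Acvr2a and Nfs1 at 50 days of chronic damage.

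The genes whose pattern was most like that of Hamp, by the mean over both batches of Spearman's rank correlation across 18 and 30 libraries among 7846 genes, were B2m (0.6), Alkbh5 (0.599), Kalrn (0.583), Slc17a2 (0.581) and Cyp2c69 (0.565). The libraries share scaling and batch, and these values are a description.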

How the data were processed

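Whole-liver RNA-seq counts deposited by the authors were used: raw counts of reads per gene symbol, made per the labels and methods with STAR 2.5.0a, Trim Galore and featureCounts (1.5.0-p1 and 1.5.0-p3, from the submitters' processing notes), in 23 and 30 libraries of batches 1 and 2 with 49997 and 49568 symbols. CPM is a count divided by its library's total. Genes reaching a CPM of more than 1 in 3 or more libraries (after CCl4, of 1 or more in most libraries) were fitted with edgeR 4.0.16 (glmQLFit, TMM; R 4.3.3), with group, sex and batch as terms where both varied, and DESeq2 1.42.0 as an alternative. The fits were tested on simulated data. The 10 genes and the other lists were chosen with earlier results of these data known. Fold changes were printed for Hamp always, and for the other members above a log2 difference of 1 or below an adjusted p of 0.1; of the 53 other iron genes, those called. Members' promoters came from RefSeq. Titles and characteristics disagree in genotype, chronic damage or months in 6 records, and days after damage were not compared in that count. In all, 5 libraries stayed without a group, and 2 samples had no file used here. The highest correlation between libraries was 0.9879. Replicate numbers were not treated as pairs in the main fits.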

Additional observations from a re-analysis of the deposited data

Results flagged for a closer look

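Single libraries stood apart from their group in 10 of 50 gene and group sets examined, by the gap of an extreme value to its neighbour (chance flags about 1 in 20). For Hamp these were an R&Zdel library at 7M (2293 CPM, next 1239), an R&Zflox library at 3M (5905, next 2542) and the R&Zflox female at 7M (3174, next 1821). The same female stood apart for Hamp2 (553.9, next 22.62), and the same 3M library for Smad7 (55.09, next 12.01). For Tfr2 it was an R&Zflox library at 1M (274.3, next 351.7). An R&Zdel library at 1M was high for Tfrc (21.65, next 7.717) and low for Slc40a1 (72.55, next 109.5). An R&Zdel library at 7M was high for Slc40a1 (157.3, next 62.56), and one at 1M was high for Ftl1 (22.29, next 18.49).

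The genotype difference changed between 4 and 170 days of chronic damage for Hamp2 (6.72 on the log2 scale), Id1 (-2.002) and Smad7 (-1.56), by a test of the change itself. The last 2 passed in 12 and 8 of 17 alternatives.

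Of the 5 libraries without a group, some exceeded the highest R&Zflox library of batch 1, which they belong to by sequencing. For Hamp2 3 did (865.7, 839.2 and 555.5 CPM, beside 553.9), for Bmp6 2 (4.629 and 5.282, beside 4.243) and for Smad7 1 (13.32, beside 10.92). For Tfrc 3 did (12.53, 19.34 and 11.6, beside 10.63), for Slc40a1 2 (164.1 and 162.7, beside 150.1) and for Ftl1 1 (3529, beside 2690).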

How the results depend on the processing

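Of 1005 values recomputed under alternatives, 863 kept their direction and side of the threshold, 61 lost a call, 35 gained one, 24 counts moved and 22 values changed sign. Causes were not tested. In each comparison more of all genes, not only of these lists, were called with no filter, by the likelihood ratio test and by DESeq2. At 4 days of chronic damage they numbered 2956, 1888 and 1842, against 1729 in the main fit. Members called numbered 7, against 20 with no filter on low counts, 13 by the likelihood ratio test, 12 by DESeq2 and 11 with an unadjusted p for hepatectomy (5 to 10 without 1 library). Other iron genes called numbered 8, against 57, 19, 28 and 25 in that order, 17 with the compared groups alone, 3 with conflicting libraries placed by characteristics and 18 with no minimum fold (3 to 20 without 1 library). Changes between time points numbered 3, against 11 with no filter, 8 by the likelihood ratio test and 8 by DESeq2 (1 to 5 without 1 library).

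Hamp at 7 days after hepatectomy was called with no filter (-1.42), by the likelihood ratio test (-1.42) and with an unadjusted p (-1.42). Replicate numbers were not treated as pairs in the main fits. Correlations of same-numbered libraries ran from -0.39 to 0.40. They cannot decide on pairing, since groups of 2 libraries give both pairs the same value and the 7M groups mix batches. With a replicate block the Hamp difference at 7 days after hepatectomy was -1.47 (adjusted p = 0.0898). Without 1 library it ran from -1.95 to -1.12. Hamp at 3M was called with no filter (-1.48) and by DESeq2 (-1.53), and at 50 days of CCl4 with no filter (-1.004).

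Signs turned without the sex term for R&Zflox at 7 days after hepatectomy over 1M (Hamp -0.10, Hamp2 -0.45) and for Hamp in R&Zdel at 21 days (-0.052). They turned for Bmp6 at 1M in males alone (-0.18), Hamp2 at 3M in batch 1 (-3.09), Hamp at 7M in batch 2 (0.22) and, by characteristics, Hamp2 (-1.54) and Slc40a1 (0.15) at 50 days. Without 1 library, Hamp ran from -0.42 to 0.16 at 7M, -0.18 to 0.29 at 21 days after hepatectomy, -0.78 to 0.054 and -0.053 to 0.57 in R&Zdel at 7 and 21 days over 1M, and -0.24 to 0.33 in R&Zdel at 170 days over 7M. Hamp2 ran from -3.69 to 0.60 at 7 days after hepatectomy and -2.32 to 1.98 in R&Zflox at 7 days over 1M. Bmp6 ran from -6.79 to 0.10 at 3M and -0.29 to 7.62 at 7 days after hepatectomy. Scaling by library totals without TMM was added after seeing the data: calls at 4 days rose from 1729 to 2965. Low counts limit Bmp6, Smad7 and Tfrc.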

Other observations

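Each of the 5 libraries of batch 1 left without a group has one named in its characteristics, which the main fits did not follow. These libraries had 1531, 2520, 1932, 1073 and 2294 CPM of Hamp. In the same order they had 225.5, 865.7, 839.2, 516.9 and 555.5 CPM of Hamp2. The females of batch 1 with a group had 202.6 and 553.9 CPM of Hamp2.

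Saa1, an acute phase gene of the other iron list, was chosen here after its values were seen. At 170 days of chronic damage it had 46.4 and 13934 CPM in the R&Zflox libraries and 56.1 and 59.3 CPM in the R&Zdel libraries, so its difference rests on 1 R&Zflox library.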
